A study of Homo sapiens with 6 samples.

Results

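The genes described here encode the polymerases that copy chromosomal DNA, the sliding clamp PCNA and its loader, and the flap endonuclease that finishes lagging-strand fragments. They were the 10 rows of the expression table, among 58735 genes, named PCNA, POLA1, POLA2, PRIM1, PRIM2, POLD1, POLE, RFC3, RFC4 and FEN1. They were measured in MDA-MB-231 cells, an established line of basal-like breast cancer, read here as carrying a non-targeting short hairpin RNA (shSCR). That reading comes from the SCR in the library names and from the study, while the labels give the genotype as WT for both groups. Polyadenylated RNA was sequenced from 3 libraries of cells that received 0 Gy and 3 libraries of cells taken 24 h after a dose of 10 Gy of gamma rays from a caesium source. The comparison asks how the RNA levels of the replication polymerases and the clamp differ after irradiation. In the cells given 10 Gy, PCNA, FEN1, POLA1 and RFC4 each fell to between 71.5% and 74.0% of their level at 0 Gy. POLD1 fell by 10.6%, a call lost in 9 of 18 alternative settings, and PRIM1, PRIM2, POLA2, POLE and RFC3 did not pass the test.

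At a replication fork, the primase subunits PRIM1 and PRIM2 lay a short RNA primer, which the polymerase alpha subunits POLA1 and POLA2 extend into DNA. The clamp loader, replication factor C, then opens the ring-shaped clamp PCNA and places it around the primed DNA, where it holds polymerase delta (catalytic subunit POLD1) on the lagging strand, while polymerase epsilon (catalytic subunit POLE) serves mainly the leading strand. FEN1 cuts the displaced 5′ flaps of lagging-strand fragments before they are joined. Genes of this machinery are known as targets of the E2F factors, which act around entry into S phase, and PCNA is widely used as a marker of proliferating cells.

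The sequence before the start of each gene was taken from RefSeq on GRCh38.p14, whose table held a window for all 10 genes (250 bases before and 50 after a transcript start, the window nearest the gene's start being used). The PCNA sequence is printed at length because PCNA had the highest level and the lowest difference of the 10 genes on the log2(FPKM + 1) scale. It covers chr20:5126623-5126785 on the minus strand, 163 bases that end at the base before the start and stop short of an exon of the neighbouring gene CDS2. It reads 5′ to 3′, with matches to an E2F site, the CCAAT box and the GC box in capitals.
PCNA: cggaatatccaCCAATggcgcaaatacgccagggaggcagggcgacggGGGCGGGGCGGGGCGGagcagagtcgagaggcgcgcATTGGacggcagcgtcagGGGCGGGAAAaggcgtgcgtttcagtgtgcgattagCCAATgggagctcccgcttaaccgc

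The E2F letters searched were TTTCCCGC, TTTGGCGC, TTTCGCGC and TTTGCCGC on both strands, and they occurred in 3.31% of the 35116 windows of this length in the table. They were found in 5 of the 10 genes, namely PCNA, POLA1, POLA2, POLE and RFC3. They were also in 5.77% of the tested genes with a window and in 8 of 32 other genes of the replication fork with a window. Those 2 counts took the first window listed for each gene. In PCNA the match overlapped a GC box. Stretches of 30 bases around the other 4 matches are printed 5′ to 3′ on the strand of the gene, with the E2F letters in capitals, to show how alike the sites are. The POLA1 stretch is chrX:24693770-24693799 (plus strand), that of POLA2 is chr11:65261898-65261927 (plus), that of POLE is chr12:132687343-132687372 (minus) and that of RFC3 is chr13:33818083-33818112 (plus).
POLA1: gtcatcacaggGCGCCAAAcgcgcgtccgc
POLA2: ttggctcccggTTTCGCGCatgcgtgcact
POLE: ctgggtgggagcGCGCCAAAtttctcccct
RFC3: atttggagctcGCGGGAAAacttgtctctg

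RFC3 and PCNA shared the same E2F letters, 55 and 59 bases before their starts, and POLA1 and POLE shared another form, 137 and 18 bases before theirs. The CCAAT box (CCAAT, both strands, in 34.6% of windows) occurred in PCNA, POLA1, PRIM1 and POLE, and PCNA held 3 copies of it. The GC box (GGGCGG, both strands, 45.0% of windows) occurred in PCNA, POLA1, POLD1, POLE and RFC4. The letters CCGGAAG of an ETS site (both strands, 10.3% of windows) were in POLA1 and RFC4, TGACGTCA of a CRE (1.85%) was in RFC3, and GCGCATGCGC of an NRF1 site (1.24%) was in none of the 10. None of the 10 windows held TATAAA, which was in 11.5% of windows, or TTTGAA, the letters of the cell cycle homology region, which were in 15.2%. FEN1 and PRIM2 matched none of the 8 motifs searched, and the PRIM2 sequence had a G and C content of 39.6%, the lowest of the 10, against 75.2% in POLE. A match is a run of letters and was not tested for binding. Many of the starts used lay inside the gene as the expression table bounds it. The distance was 576 bases for RFC4, 274 for FEN1, 200 for POLA2, 119 for POLD1 and 100 for RFC3. It was 50 for PRIM1, 23 for POLE and 4 for PCNA. The E2F matches of POLA2, RFC3 and POLE therefore also lie inside those bounds.

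The values are FPKM, the usual measure of fragments scaled to gene length and sequencing depth, so they can be compared between genes of different length. The reads on genes recovered from them came to between 15643641 and 28861781 per library. A gene entered the test when its mean over the 6 libraries reached 1 FPKM, which 12128 genes did, all 10 described here among them. Of these, 23.7% were called lower at 10 Gy and 11.9% higher, at an adjusted p under 0.05 in limma. The share called lower by at least 1.3-fold, taken on the log2(FPKM + 1) scale, was 2.95%. The groups did not overlap, with 10 Gy lower, in 32.8%. The median difference of all genes tested was -0.04 on the log2(FPKM + 1) scale. When each library was rescaled to the same FPKM sum (TPM scaling), that median became 0.07, a shift of 0.11, and the share of lower among called genes went from 66.6% to 25.5%. The sum of FPKM ran from 269611 to 278380 at 0 Gy and from 246920 to 254918 at 10 Gy. Changes are therefore also read against the median of all genes. Nothing in the sources says that the 3 libraries of a group came from separate cultures, so p-values measure the spread between these libraries. In bulk RNA, fewer cells in a state and less RNA per cell cannot be told apart.

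At 0 Gy the levels of the 10 genes spanned from 1.27 to 170 FPKM. PCNA was the highest at 170 ± 8.75 FPKM (SD, n = 3), above 98.5% of the genes tested, and FEN1 followed at 111 ± 7.00 FPKM, above 97.2%. POLD1 (24.2 ± 1.40), RFC3 (23.1 ± 0.706) and RFC4 (21.2 ± 1.22) made up a middle group. POLE (11.9 ± 0.662), PRIM2 (9.50 ± 0.300), PRIM1 (8.73 ± 1.04) and POLA1 (8.26 ± 0.199) came next, all above the median gene at 7.11 FPKM. POLA2 was lowest at 1.27 ± 0.171 FPKM, above 6.51% of the genes tested. Neighbours in this order whose libraries overlapped were POLD1 and RFC3, PRIM2 and PRIM1, and PRIM1 and POLA1, so their order is not set by these data.

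The length used for each gene, the union of the exons of all its transcripts, bears on this order. For POLE it was 16609 bases against 7840 in the principal transcript, and for RFC4 it was 2997 against 1448. With the principal transcript's length instead, an alternative chosen after seeing the data, RFC4 moved from rank 5 to rank 3 at 43.9 ± 2.52 FPKM, ahead of POLD1 at 34.7 ± 2.01 and RFC3 at 27.6 ± 0.845. PCNA and FEN1 stayed first and second, and POLA2 stayed last. No neighbours overlapped on that scale. POLA2 shares 2012 exon bases on its own strand with AP000944.2, a gene of low level in the table, so its reads are uncertain.

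**Figure D1:**
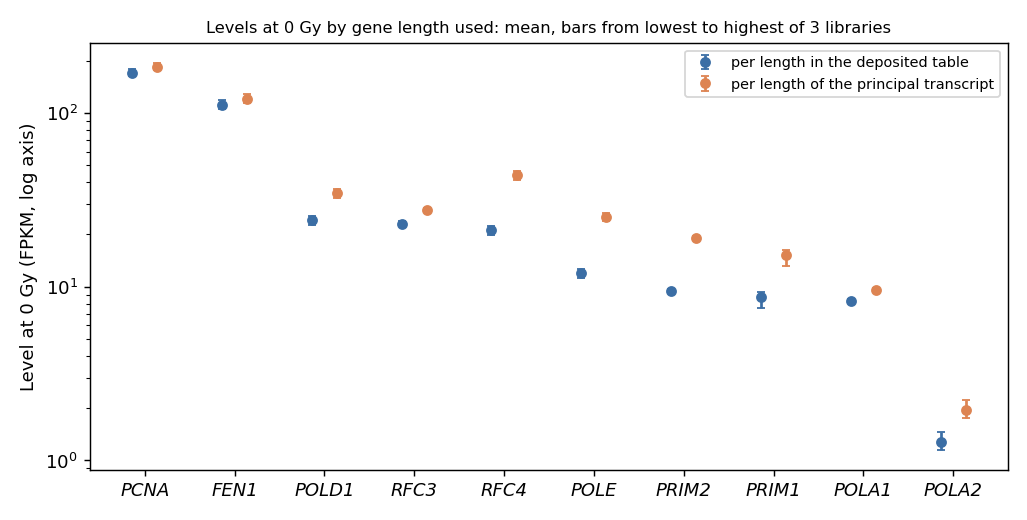
Mean level at 0 Gy in FPKM on a log axis for the 10 genes, with bars from the lowest to the highest of 3 libraries, per length in the deposited table (blue) and per length of the principal transcript (orange). PCNA and FEN1 lead and POLA2 is last on both, while RFC4 rises above POLD1 and RFC3 when the principal transcript's length is used.

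Of the 10 genes, 5 were called lower at 10 Gy, beside 23.7% of all genes tested, and 4 were lower by at least 1.3-fold, beside 2.95%. With TPM scaling those 4 kept their calls, beside 8.84% of all genes tested called lower, but 0 of the 10 genes reached 1.3-fold, beside 0.914%. The groups did not overlap for 6 of them, PCNA, FEN1, RFC4, RFC3, POLA1 and POLD1, beside 32.8%. None was called higher in limma at an adjusted p under 0.05, nor at an unadjusted p, since all 10 differences lay below 0 on the deposited scale. Their median difference was -0.25 on the log2(FPKM + 1) scale against -0.04 over all genes tested, and -0.16 against 0.07 with TPM scaling.

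**Figure D2:**
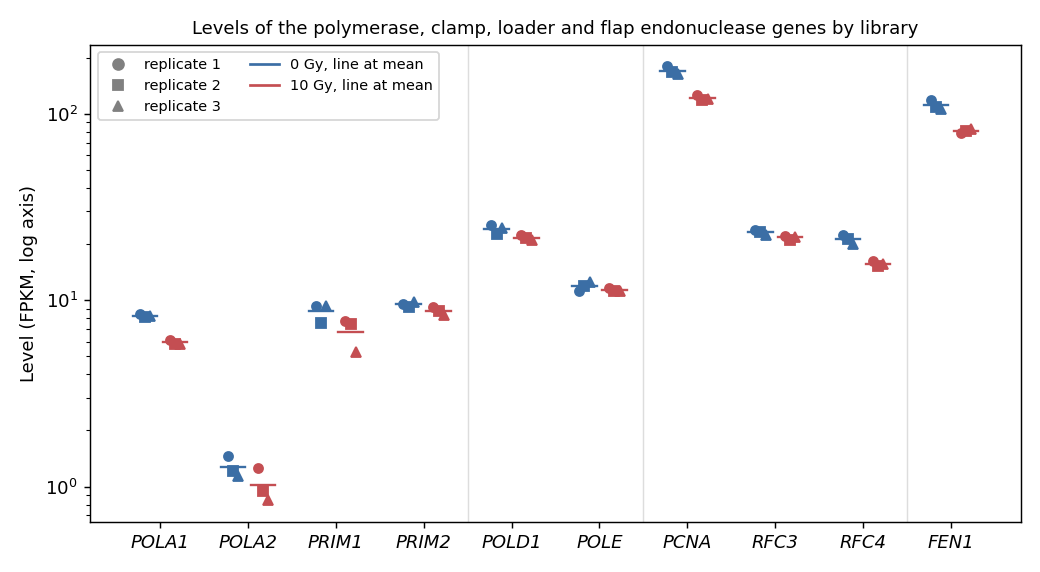
Level of each gene in FPKM on a log axis in the 3 libraries at 0 Gy (blue) and the 3 at 10 Gy (red), with the replicate shown by the marker's shape and the mean by a line. PCNA, FEN1, RFC4 and POLA1 stand apart between the doses, whereas POLE, PRIM2, PRIM1 and POLA2 overlap.

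POLA1, the catalytic subunit of polymerase alpha (chrX:24693919-24996986, plus strand), had levels of 8.48, 8.09 and 8.21 FPKM at 0 Gy and 6.15, 5.78 and 5.85 FPKM at 10 Gy. Every irradiated library was below every control, and the spread within a group was small, with the highest library 1.05 and 1.06 times the lowest at 0 and 10 Gy. The fall was 28.2%, or -0.42 on the log2(FPKM + 1) scale (SE 0.039, limma adjusted p = 0.000709), and it was called in all 18 alternative settings. POLA2, its regulatory subunit (chr11:65261762-65305589, plus strand), had 1.47, 1.20 and 1.14 FPKM at 0 Gy and 1.26, 0.947 and 0.847 FPKM at 10 Gy. The doses overlapped, and only 99 to 215 reads per library lay behind these values. The difference was -0.17 with a 95% interval from -0.41 to 0.06 (limma adjusted p = 0.212). Its mean FPKM was 20.1% lower. The difference was -0.31 with a pseudocount of 0.1 in place of 1, and ran from -0.26 to -0.11 with 1 library left out. The log2(FPKM + 1) scale compresses a gene this low, so the 95% interval cannot be set against the difference in POLA1.

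PRIM1, the catalytic primase subunit (chr12:56731596-56752373, minus strand), had 9.33, 7.53 and 9.32 FPKM at 0 Gy and 7.70, 7.42 and 5.25 FPKM at 10 Gy. A control library lay among the irradiated ones, and irradiated replicate 3 was the lowest of the 6. The difference was -0.33 with an interval from -0.65 to -0.01 (limma adjusted p = 0.0969), and it was -0.18 without irradiated replicate 3. PRIM1 passed the test when only protein-coding genes were tested (adjusted p = 0.0377) and in none of the other settings. PRIM2, the large primase subunit (chr6:57314805-57646849, plus strand), had 9.60, 9.16 and 9.73 FPKM at 0 Gy and 9.18, 8.74 and 8.33 FPKM at 10 Gy. Its doses met at 9.16 and 9.18 FPKM. The difference was -0.11 (interval from -0.21 to -0.0019, limma adjusted p = 0.102), and with TPM scaling it was 0.01. Within the complex that makes primers, the catalytic polymerase subunit was thus the member that passed the test. This does not set POLA1 apart from PRIM1 and POLA2, whose mean FPKM was 22.2% and 20.1% lower. The ratios of POLA1 to PRIM1 and of POLA1 to POLA2 overlapped between the doses.

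POLD1, the catalytic subunit of polymerase delta (chr19:50384204-50418016, plus strand), had 25.5, 22.7 and 24.5 FPKM at 0 Gy and 22.4, 21.5 and 21.1 FPKM at 10 Gy. The groups were separate by a small margin, the lowest control at 22.7 and the highest irradiated library at 22.4 FPKM. The difference was -0.15 (interval from -0.27 to -0.04, limma adjusted p = 0.0406), and the call was lost in 9 of 18 alternative settings, with an adjusted p of up to 0.636 with TPM scaling, where the difference was -0.03. Among those 9 were the fits that left out any single library except control replicate 2, with adjusted p from 0.0625 to 0.121. POLE, the catalytic subunit of polymerase epsilon (chr12:132623753-132687365, minus strand), had 11.3, 12.0 and 12.6 FPKM at 0 Gy and 11.6, 11.2 and 11.1 FPKM at 10 Gy. A control library lay inside the irradiated range. The difference was -0.07 (interval from -0.18 to 0.03, limma adjusted p = 0.249) and 0.05 with TPM scaling, so a fall of the size seen in POLA1 lies outside the interval on the deposited scale. It was -0.04 without control replicate 3 and -0.11 without control replicate 1.

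PCNA, the clamp that tethers the polymerases (chr20:5114953-5126626, minus strand), had 179.8, 166.8 and 163.2 FPKM at 0 Gy and 125.6, 118.5 and 120.2 FPKM at 10 Gy. The highest irradiated library was well below the lowest control. Its mean fell by 28.5%, from 170 ± 8.75 to 121 ± 3.69 FPKM (SD, n = 3), a difference of -0.48 on the log2(FPKM + 1) scale (SE 0.046, limma adjusted p = 0.000743). Between 3183 and 5642 reads per library lay behind the values, and the call held in all 18 settings, with differences from -0.51 to -0.35. Processed pseudogenes of PCNA named PCNAP1, PCNAP3 and PCNAP4 are listed at 0 in every library.

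RFC4, a small subunit of replication factor C that takes part in opening the clamp (chr3:186789880-186807058, minus strand), had 22.4, 21.3 and 19.9 FPKM at 0 Gy and 16.2, 15.2 and 15.7 FPKM at 10 Gy. The groups were apart by more than 3 FPKM. It fell by 26.0%, a difference of -0.41 (SE 0.048, limma adjusted p = 0.00139), called in all 18 settings. RFC3, another small subunit of the same loader (chr13:33818049-33966558, plus strand), had 23.8, 23.2 and 22.4 FPKM at 0 Gy and 22.2, 21.1 and 21.9 FPKM at 10 Gy. Its groups did not overlap but came as close as 22.4 and 22.2 FPKM. The difference was -0.09 with an interval from -0.17 to -0.0015 (limma adjusted p = 0.102), and it was 0.04 with TPM scaling. The medians of all genes tested on those scales were -0.04 and 0.07.

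FEN1, which removes the 5′ flap at the end of each lagging-strand fragment (chr11:61792637-61797244, plus strand), had 118.9, 108.4 and 105.6 FPKM at 0 Gy and 78.7, 80.5 and 83.2 FPKM at 10 Gy. The irradiated libraries lay below all controls by more than 20 FPKM. It fell by 27.2%, from 111 ± 7.00 to 80.8 ± 2.23 FPKM, a difference of -0.45 (SE 0.049, limma adjusted p = 0.00114), called in all 18 settings. The FEN1 exons share 166 bases with TMEM258 on the opposite strand and 49 bases with FADS2 on its own strand, and how shared reads were counted is not given in the sources used here. PRIM1 shares 362 exon bases with AC117378.1 and 33 with NACA on its own strand, and 132 with HSD17B6 on the opposite strand. POLD1 shares 426 with AC020909.1 on its own strand, and RFC4 shares 21 with EIF4A2 on the opposite strand. Of the 5 genes with an E2F match, PCNA and POLA1 fell and POLA2, POLE and RFC3 were not called. Of the 5 without a match, RFC4, FEN1 and POLD1 fell and PRIM1 and PRIM2 were not called. The starts used for RFC4 and FEN1 lay 576 and 274 bases inside the gene, so sequence before the gene's bounds was not searched. PRIM2 and POLD1 each had another window that was not used. Over all tested genes with a window, 34.3% of the 499 with an E2F match were called lower, against 26.0% of all 8650, with medians of -0.08 and -0.05. That count took the first window listed for each gene.

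**Figure D3:**
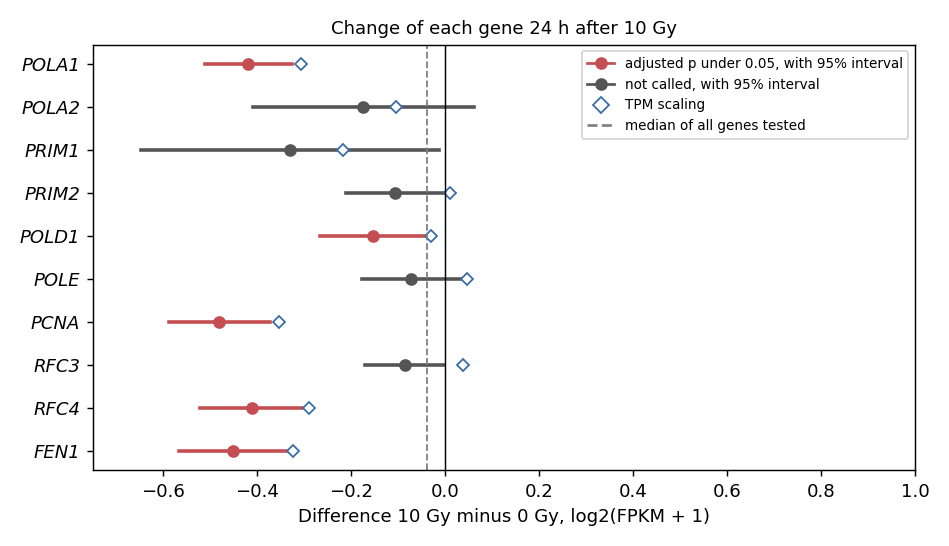
Difference between 10 Gy and 0 Gy for each gene on the log2(FPKM + 1) scale, with limma's 95% interval, in red where the adjusted p was under 0.05, with open diamonds for TPM scaling and a dashed line at the median of all genes tested (-0.04). POLA1, PCNA, RFC4 and FEN1 lie near -0.4 or below and stay under -0.28 with TPM scaling, while PRIM2, POLE and RFC3 cross 0.

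Because scaling acts on all genes of a library alike, ratios of genes within a library show how the members changed against each other. For 13 pairs taken within the primase-polymerase group, between the polymerases and among clamp, loader and FEN1, the ratio was computed in each library, and 5 did not overlap between the doses. The RFC3 to RFC4 ratio was 1.06, 1.09 and 1.12 at 0 Gy and 1.37, 1.39 and 1.40 at 10 Gy. The PCNA to RFC3 ratio was 7.56, 7.20 and 7.29 at 0 Gy and 5.67, 5.63 and 5.48 at 10 Gy. Thus RFC4 and PCNA were lower against RFC3 in every irradiated library than in any control. PCNA to RFC4 moved little by comparison, from 8.01 ± 0.185 to 7.73 ± 0.0744, although its libraries did not overlap. PCNA to FEN1 was 1.53 ± 0.0174 at 0 Gy and 1.50 ± 0.0797 at 10 Gy, with overlap. POLA1 to PRIM2 went from 0.870 ± 0.0231 to 0.678 ± 0.0217 without overlap, and RFC3 to FEN1 from 0.209 ± 0.00737 to 0.269 ± 0.0109 without overlap. POLA1 to PRIM1 overlapped, at 0.955 ± 0.105 and 0.898 ± 0.188, as did POLA1 to POLA2, at 6.56 ± 0.707 and 5.97 ± 1.01. POLD1 to POLE overlapped, at 2.04 ± 0.197 and 1.92 ± 0.0217. The 5 pairs without overlap each had p = 0.1 in a two-sided exact permutation test, the smallest that 3 against 3 libraries allow, and 0.26 after Benjamini-Hochberg adjustment over the 13 pairs.

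**Figure D4:**
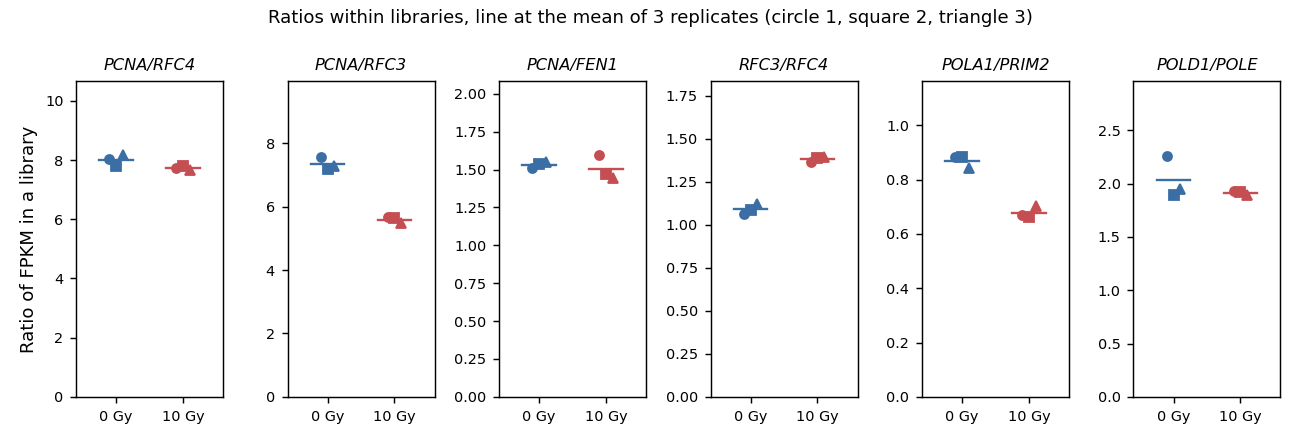
Ratio of FPKM within each library for 6 of the 13 pairs at 0 Gy (blue) and 10 Gy (red), with axes from 0, a marker shape for each replicate and a line at the mean of 3. PCNA to RFC3 and POLA1 to PRIM2 are lower and RFC3 to RFC4 is higher in every irradiated library, while PCNA to FEN1 and POLD1 to POLE overlap.

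The other genes of the fork were taken from a list of 40, of which 39 were tested and RNASEH2A, at 0.303 to 0.569 FPKM, was not. Of the 39, 26 were called lower (beside 23.7% of all genes tested), 1 was called higher and 12 were not called, with a median difference of -0.21. With TPM scaling, where 8.84% of all genes tested were called lower and 25.8% higher, 15 of the 26 kept their call, 4 of the 39 were called higher, and the median was -0.09 against 0.07 over all genes. The 7 that fell by at least 1.3-fold on the log2(FPKM + 1) scale were DSCC1, GINS2, USP1, CDC45, CLSPN, TIPIN and LIG1 (beside 2.95% of all genes tested). They were among 15 that kept their call in all 18 alternative settings. With TPM scaling 2 of them, DSCC1 and GINS2, still reached 1.3-fold, beside 0.914%. PCLAF and POLD3 fell by 24.1% and 23.3% in mean FPKM, which is also 1.3-fold, but did not reach it on the log2(FPKM + 1) scale. The counts by role that follow are read against the same shares of all genes tested, 23.7% lower and 11.9% higher.

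Among the accessory subunits of polymerases delta and epsilon, 5 of 6 were called lower. POLD3 (-0.35) kept its call with TPM scaling, and POLE2 (-0.27), POLE4 (-0.24), POLE3 (-0.20) and POLD2 (-0.15) did not. With a library left out, POLD2 lost its call in 5 of 6 fits, POLE4 in 4 and POLE3 in 1. POLD4, the smallest delta subunit, was at 2.06 FPKM with a difference of 0.12 that was not called (limma adjusted p = 0.318). The accessory subunit POLD3, from 11.7 ± 0.403 to 8.99 ± 0.340 FPKM, thus had a larger difference than the catalytic POLD1, a contrast that was not tested.

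Of 8 other loader genes, 4 were called lower. RFC2 went from 29.6 ± 1.21 to 24.1 ± 1.15 FPKM (-0.29) and RFC5 from 20.7 ± 0.691 to 16.4 ± 1.02 FPKM (-0.32), and both kept the call with TPM scaling. RFC1, the large subunit of replication factor C, was at 16.0 ± 0.461 and 16.6 ± 0.0920 FPKM (0.05, limma adjusted p = 0.275) and was called higher only with TPM scaling (0.17). The 5 subunits of replication factor C thus divided into RFC2, RFC4 and RFC5, which fell under both scalings, and RFC1 and RFC3, which were called lower under neither. DSCC1, part of the alternative loader that acts in sister chromatid cohesion, had the lowest difference of the list on the log2(FPKM + 1) scale, close to that of GINS2, from 16.4 ± 0.890 to 10.5 ± 0.968 FPKM (-0.60, limma adjusted p = 0.00121), and its partner CHTF18 fell by 0.21 on the log2 scale, a call lost in 7 of 18 settings, 4 of them with a library left out. ATAD5, which unloads PCNA, RAD17, which loads the checkpoint clamp, and CHTF8 were not called, with differences from -0.12 to -0.03.

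In the processing of lagging-strand fragments, LIG1, the ligase that seals them, went from 14.1 ± 0.995 to 10.6 ± 0.108 FPKM (-0.39, limma adjusted p = 0.00199), beside the fall in FEN1. DNA2, a nuclease for long flaps (-0.26), and RNASEH2C, a subunit of the enzyme that removes RNA from DNA (-0.34), were also called lower, and these 3 kept their calls with TPM scaling. RNASEH2B, at 1.20 FPKM, was not called (-0.12). The 3 subunits of replication protein A, which coats single-stranded DNA, were called lower by small amounts, RPA1 by -0.17, RPA2 by -0.18 and RPA3 by -0.24, and none kept its call with TPM scaling. Scaling by each library's upper quartile kept all 3 calls, and scaling by the median of ratios kept 2. RPA3 lost its call in 10 of 18 settings, 5 of them with a library left out, and RPA2 also without irradiated replicate 2.

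Of 10 scaffold genes and helicase cofactors, 6 were called lower. CDC45, part of the replicative helicase, went from 27.7 ± 0.510 to 20.0 ± 0.802 FPKM (-0.45), and GINS2, another part, from 12.0 ± 0.953 to 7.60 ± 0.540 FPKM (-0.59). GINS1 (-0.29), CLSPN, the checkpoint mediator at forks (-0.42), TIPIN (-0.40) and MCM10 (-0.15) were the rest, and MCM10 lost its call in 8 of 18 settings, 5 of them with a library left out. TIMELESS, which pairs with TIPIN, was at 21.0 ± 0.489 and 21.3 ± 0.326 FPKM (0.02, limma adjusted p = 0.698) and was called higher with TPM scaling (0.14). GINS3, GINS4 and WDHD1 were not called.

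Of 8 genes whose products modify PCNA or bind it, 5 were called lower. USP1, which removes ubiquitin from PCNA, went from 58.5 ± 1.32 to 42.1 ± 0.876 FPKM (-0.47, limma adjusted p = 0.000439). Its cofactor WDR48 was the gene called higher in the list, from 6.10 ± 0.391 to 6.99 ± 0.113 FPKM (0.17, limma adjusted p = 0.0296), a call lost in 6 of 18 alternative settings, 5 of them with a library left out. PCLAF, a PCNA-binding factor (-0.37), DTL, which targets PCNA-bound proteins for degradation (-0.30), and CDKN1A, the cyclin-dependent kinase inhibitor that also binds PCNA (-0.30), were lower. The call for CDKN1A was lost with TPM scaling (limma adjusted p = 0.0520), and UBE2B, called lower at -0.11, turned to 0.01 there and lost its call in 10 of 18 settings, 5 of them with a library left out. RAD18, which attaches ubiquitin to PCNA, and UBE2A were not called, though UBE2A was called higher with TPM scaling (0.13).

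**Figure D5:**
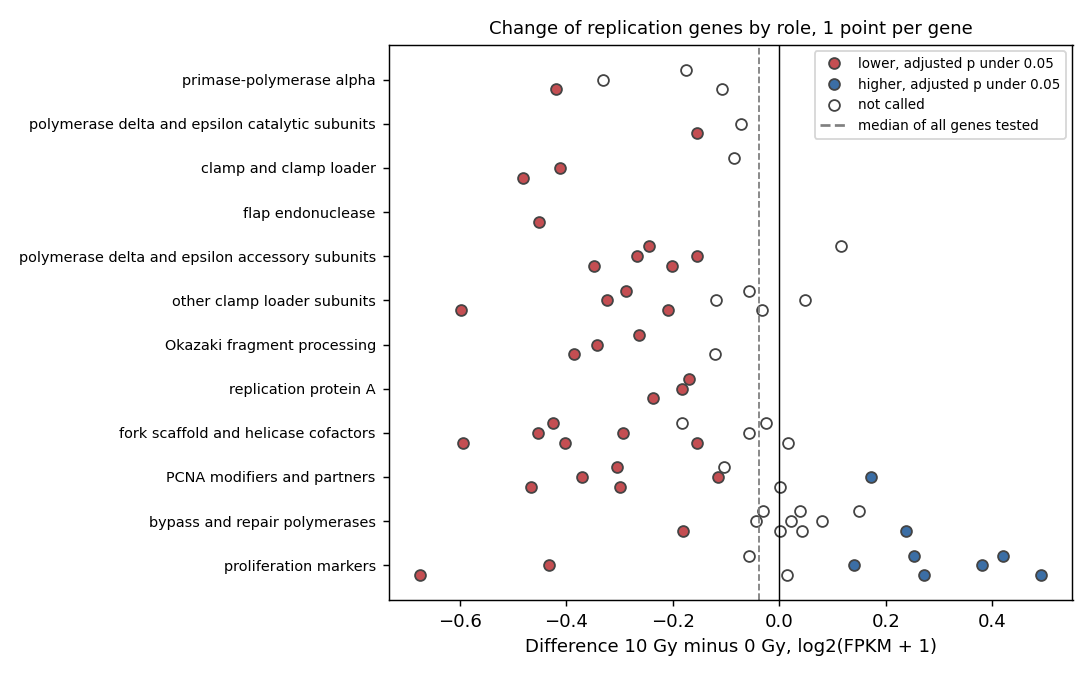
Difference between 10 Gy and 0 Gy on the log2(FPKM + 1) scale for each tested gene, 1 point per gene, in rows by role, filled red where called lower and blue where called higher at an adjusted p under 0.05. Most fork genes lie left of the dashed median of all genes (-0.04), the bypass and repair polymerases lie around 0, and the proliferation markers lie on both sides.

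Polymerases that do not run the main fork were taken from a further list. Of 12 bypass and repair polymerases, 10 were tested, 1 was called lower and 1 higher, beside 23.7% and 11.9% of all genes tested, and their median difference was 0.03. PRIMPOL, which restarts stalled forks by repriming, went from 5.60 ± 0.106 to 4.83 ± 0.163 FPKM (-0.18), a call lost with TPM scaling and without irradiated replicate 2. POLQ, the polymerase of an end-joining pathway for double-strand breaks, went from 2.32 ± 0.172 to 2.91 ± 0.237 FPKM (0.24, limma adjusted p = 0.0309), but this call was lost in 7 of 17 alternative settings, 5 of them with a library left out. POLH, which copies past ultraviolet lesions, was at 12.9 ± 1.26 and 13.7 ± 0.181 FPKM and was not called. POLB, of base excision repair, was called higher only with TPM scaling (0.25). POLI and POLN were under the filter. The difference between this list and the fork polymerases was not tested.

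Markers of the cells and of the cycle moved beside these results. Of 10 proliferation markers, 6 rose and 2 fell, beside 11.9% and 23.7% of all genes tested, and their summed level went from 690 to 693 FPKM at 0 Gy to 790 to 800 FPKM at 10 Gy. Those that rose were AURKA from 93.5 ± 1.84 to 131.9 ± 1.59 FPKM (0.49), CCNB1 (0.42), PLK1 (0.38), BUB1 (0.27), TOP2A (0.25) and CDK1 (0.14). The 2 that fell supply DNA precursors, RRM2 (ribonucleotide reductase) from 35.1 ± 0.512 to 21.6 ± 0.768 FPKM (-0.67) and TYMS (thymidylate synthase) by 0.43 on the log2 scale. These 8 calls were kept with TPM scaling, and that of CDK1 was lost without irradiated replicate 1. MKI67 (0.02) and CCNA2 (-0.06) were not called. The part of cell cycle distribution in the falls of PCNA and the other members was not tested. Of the 5 markers listed for this basal-like line, VIM was at 301 and 251 FPKM, CD44 at 78.6 and 73.0 FPKM and EGFR at 29.8 and 27.4 FPKM, and the simple keratins KRT18 and KRT8, which luminal cells share, lay between 90.0 and 117 FPKM in the 6 libraries. Of the markers that define luminal cells, ESR1 was at no more than 0.0169 FPKM and PGR listed at 0. VIM and CD44 were called lower (-0.26 and -0.11), and CD44 turned to 0.02 with TPM scaling and lost its call in 10 of 18 settings. With TPM scaling KRT8 was called higher (0.22). Of the luminal markers GATA3 was highest, at 3.05 FPKM, and was not called. The summed level of 8 leukocyte, endothelial and fibroblast markers was 6.74 to 8.08 FPKM at 0 Gy and 9.66 to 10.5 at 10 Gy. Among the 4 tested, PECAM1 (0.40) and COL1A1 (0.37) were called higher, beside 11.9% of all genes tested. PECAM1 was low, at 1.22 and 1.94 FPKM. CD14, at 1.96 and 2.48 FPKM, was not called, and PDGFRB was called higher only with TPM scaling (0.23). PTPRC was at no more than 0.00710 FPKM and CD3E was listed at 0.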

How the data were processed

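The 10 genes and all lists were chosen with earlier results of these data known. Per the labels, 6 MDA-MB-231 libraries fall into 3 at 0 Gy and 3 taken 24 h after 10 Gy. The authors deposited FPKM values from polyA libraries, and the submitters' processing notes name HISAT2 and GRCh38. The counting program is not given in the sources used here. Gene identifiers matched the GENCODE annotation for 58735 of 58735 rows, and gene length equalled the union of exons for 99.981%. Multiplying FPKM by length and an implied depth gave whole reads for 100% of values. The margin allowed was 0.01 reads plus a part that grew with the read count, so high counts were held to a looser limit. That depth was 0.973 to 0.991 times the summed reads at 0 Gy and 1.03 to 1.04 times at 10 Gy.

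Differences were fitted on log2(FPKM + 1) for the 12128 genes that reached a mean of 1 FPKM, using limma 3.58.1 under R 4.3.3 (eBayes, with a trend). This scale understates fold changes of low genes. Benjamini-Hochberg adjustment ran over all genes tested, and an adjusted p under 0.05 was a call. The fit was tested on simulated data. The 10 genes are named with every library's value. Of other lists, called genes were named, or else the gene with the highest level. Of the 5 genes with the profile most like the 10, 1 is not reported here. Ratios were tested with scipy 1.17.1. Other settings changed the pseudocount (0.1 or 0.5), the filter, the scaling, the depth, the replicate block, the moderation, the gene types and the libraries, 18 fits in all.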

Additional observations from a re-analysis of the deposited data

How the results depend on the processing

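PCNA, POLA1, RFC4 and FEN1 kept their direction and call in all 18 alternative fits. POLD1 kept its direction and lost its call in 9. PRIM2, POLE and RFC3 reversed with TPM scaling, at 0.0092, 0.0464 and 0.0372 on the log2 scale, without a call. PRIM1 gained a call with protein-coding genes only. POLA2 was called in none of its 17 fits, and none was made for a mean of at least 5 FPKM, which it does not reach. Scaling by each library's upper quartile kept the lower calls of 5 of the 10 genes and of 26 other fork genes. Scaling by the median of ratios kept those of the same 5 and of 23 other fork genes. Of the other fork genes, 15 were called lower and 4 higher with TPM scaling, 0 were called higher without a filter, and 7 lower and 0 higher when at least 1.3-fold was asked, where 700 genes were called in all. Of the bypass and repair polymerases, 0 were called higher without a filter, at 5 FPKM or with the block, 0 lower and 2 higher with TPM scaling (beside 8.84% and 25.8% of all genes tested), and 0 either way at 1.3-fold. Where a limma fit called 0, an unadjusted p under 0.05 was met by 0 of the 10 genes, by 1 other fork gene (higher) and by 0 to 2 (higher) or 0 to 1 (lower) bypass and repair polymerases. Leaving out 1 library at a time gave 2651 to 3975 genes called (2651 without irradiated replicate 2 and 2711 without irradiated replicate 1), 4 to 5 of the 10 genes lower and 0 higher, 19 to 23 other fork genes lower and 0 to 1 higher, and 0 to 1 bypass polymerases either way. Replicates with the same number did not deviate together (correlations of -0.040, -0.035 and -0.101). Deviations from the mean of only 3 libraries cannot settle whether the numbers pair the libraries. With the replicate number as a block, 3503 genes were called in place of 4317, and the same 5 of the 10 genes were lower. The cause of these differences was not tested. POLA2 had 99 to 215 reads per library, and its interval was the widest of the 10 genes after that of PRIM1.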

Other observations

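The genes of mitochondrial DNA replication, which use a polymerase of their own, were tested as a further list of 6. TWNK, the mitochondrial helicase (-0.12), SSBP1, the mitochondrial single-strand binding protein (-0.27), POLRMT, the RNA polymerase that primes (-0.16), and TFAM, which packs the genome (-0.15), were called lower at 10 Gy on the log2(FPKM + 1) scale, beside 23.7% of all genes tested. POLG2, the accessory subunit of the polymerase, was called higher, from 7.83 ± 0.348 to 8.86 ± 0.240 FPKM (SD, n = 3), a difference of 0.16. SSBP1 kept its call in all 18 alternative fits, and the other lower calls were lost with TPM scaling among others, POLRMT in 11 fits, TWNK in 5 and TFAM in 2. The POLG2 call was lost in 5 fits. Of these losses, 5 for POLRMT, 3 for TWNK, 1 for TFAM and 3 for POLG2 came with a library left out. POLG, the catalytic subunit, was at 18.5 ± 0.554 and 17.6 ± 0.278 FPKM and was not called.

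Among 10405 protein-coding genes outside all lists, those whose profile over the 6 libraries was most like the mean standardized profile of the 10 genes included PEMT, which makes phosphatidylcholine, OSTF1, NOL10 and SUSD5. Pearson's r was 0.998 for PEMT and 0.992 for SUSD5. This is a description over 6 points that share their libraries and their dose. PEMT went from 13.3, 12.3 and 13.0 FPKM at 0 Gy to 11.0, 10.1 and 9.72 FPKM at 10 Gy, a difference of -0.30. Against the same mean profile, POLA1 (0.974) and PCNA (0.970) had the highest r of the 10 genes and POLE (0.581) the lowest. Each of the 10 is itself part of that mean, so these values are not independent of it.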
